A study of Mus musculus with 6 samples.

Results

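The integrins, the laminins and fibronectin are described here as a module of 39 genes among the 46078 genes of the deposited count tables. Members were taken by gene symbol and not by any measured value. They comprise 12 integrin alpha subunits, 8 integrin beta subunits, 11 laminin chains, 4 other matrix proteins (Fn1, Vtn, Nid1 and Nid2) and 4 proteins of the inner face of adhesion sites (Ptk2, Pxn, Tln1 and Ilk). Integrin genes with other name patterns, such as Itga2b, were not members.

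The RNA came from mouse mesoderm explants dissected at stage E7.25 and cultured on slides coated with fibronectin, so every group grew on the protein that Fn1 encodes. PD at 1 µM was given for 16 h to the explants of 2 libraries, and the labels name this agent no further. YZ9 at 10 µM, also for 16 h, was given to those of 2 libraries, and is known as a compound that blocks the glycolytic regulator PFKFB3. The control group held 2 libraries, and whether these received a vehicle is not stated. All explants are labelled WT, whereas the series text names TCF/Lef:H2B-GFP reporter mice. All were left to attach for 3 to 4 h. Culture time is given as 27 h in the growth protocol and as 24 h in the series text. No label tells whether replicates are separate embryos, pools or cultures. By their Xist and Y-linked counts the 2 libraries of each inhibitor group differ in sex, so they came from different embryos. Both control libraries are male, and whether they differ only technically is not known. A p-value here reflects only how much these libraries vary.

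Integrins are receptors of an alpha and a beta subunit that bind matrix outside the cell and talin, paxillin and kinases inside it, and so link the matrix to actin. Laminins are trimers of an alpha, a beta and a gamma chain that form basement membrane sheets, which nidogens tie to type IV collagen. Fibronectin is the matrix protein on which gastrulating mesoderm is known to migrate, and integrin alpha 5 beta 1 is its main receptor there.

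Total counts ranged from 25395141 to 27066702 in the PD libraries, from 21253194 to 27810161 in the YZ9 libraries, and from 27231057 to 27529450 in the control libraries. PD replicate 2 and YZ9 replicate 2 were female by their Xist and Y-linked counts, and the other 4 libraries were male. Of 14 mesoderm markers, Mesp1 and Tbx6 had between 0 and 7 counts in each library. The summed mesoderm markers ranged from 1579 to 2092 CPM with PD, from 1514 to 1534 CPM with YZ9, and from 1617 to 2100 CPM in controls. In both PD libraries 4 of the 14 lay below and 2 above both controls (19.5% and 19.2% of all genes). In both YZ9 libraries 3 lay below and 1 above (24.5% and 21.1% of all genes). Hand2, Vim and Meox1 were below with both inhibitors, and Isl1 with PD. Foxf1 and Pdgfra were above with PD, and Gata4 with YZ9. CPM are read counts normalised to a common library size after TMM scaling. In bulk RNA of this kind, fewer cells of a type and less RNA per cell cannot be told apart.

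The members took 0.353% and 0.362% of all counts with PD and 0.452% and 0.321% with YZ9, against 0.508% and 0.430% in controls. Both PD libraries and YZ9 replicate 2 lay below both controls, and YZ9 replicate 1 lay between them. Of the 39 members, 38 passed the filter on low counts. Itgb7, a leukocyte beta subunit, did not, with 0 and 8 counts with PD, 0 and 2 with YZ9, and 6 and 4 in controls.

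Per kilobase of exon, Itgb1, the beta subunit shared by the receptors for fibronectin, laminin and collagen, was the most abundant member, at a mean of 301 CPM per kb with PD, 244 with YZ9 and 333 in controls. Fn1 came next at 78.4 CPM per kb with PD, 66.7 with YZ9 and 100.4 in controls. In controls, Nid1, Nid2, Lamb1, Lamc1 and Itga5 followed, at means from 54.9 down to 22.7 CPM per kb. Over the 2 control libraries the ranges of Nid2, Lamb1, Lamc1 and Itga5 per kb overlapped. Within each control library Nid2 was the highest of these (43.1 and 26.3 CPM per kb) and Itga5 the lowest (31.3 and 14.0). Lamb1 and Lamc1 changed places between the 2 libraries, and the order was not tested. At the other end of the per-kilobase order in controls, Itgb6, Lamb3, Lama3 and Vtn each had a mean under 0.05 CPM per kb, and Vtn had no count. On GRCm38, with GENCODE M21, the integrin genes described most fully are Itga1 at chr13:114953096-115101964 on the minus strand, Itga4 at chr2:79255426-79333123 on the plus strand, Itgav at chr2:83724397-83806916 on the plus strand, Itgb3 at chr11:104608000-104670476 on the plus strand and Itgb1 at chr8:128685654-128733200 on the plus strand. The matrix genes are Fn1 at chr1:71585520-71653200 on the minus strand, Nid1 at chr13:13437551-13512269 on the plus strand and Vtn at chr11:78499091-78502324 on the plus strand, each protein coding.

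**Figure D1:**
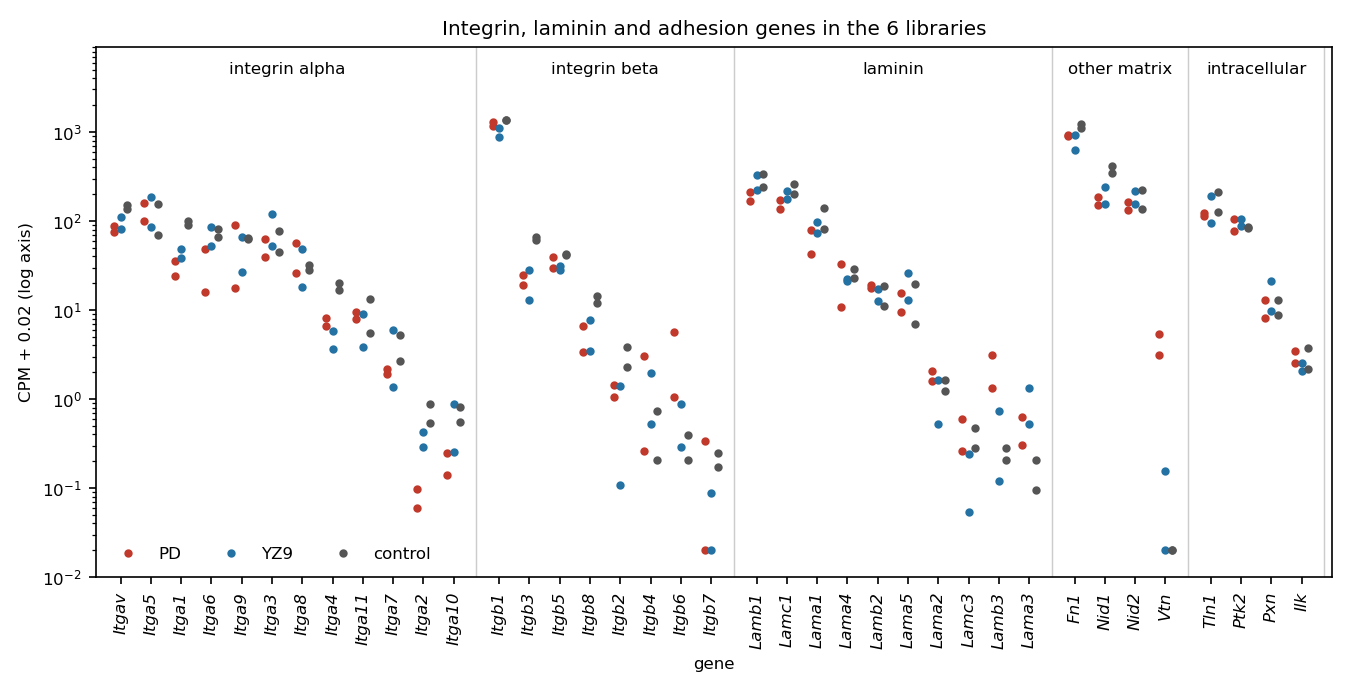
Level of the members reported here in each library, in CPM plus a small offset on a log axis, grouped by role and ordered by level within a role, with PD, YZ9 and control points side by side. Itgb1 sits between 883 and 1363 CPM in the 6 libraries, Itga1, Itga4, Itgav, Itgb3, Itgb8 and Nid1 have all treated points below both control points, and Vtn has points well above its control points in both PD libraries.

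With PD, the collagen receptor subunit Itga1, the fibronectin and vitronectin receptor subunits Itga4, Itgav and Itgb3 and the nidogen Nid1 were lower in both libraries than in both controls, by log2 fold changes between -1.66 and -0.83. The low-level members Vtn, Itgb6 and Lamb3 were higher in both. None passed edgeR's quasi-likelihood test. After Benjamini-Hochberg adjustment over the 15568 genes tested, 0 of 38 members were under 0.05, where 15 of all genes, or 0.0964%, were. At an unadjusted p under 0.05, 9 members were lower (23.7%, against 5.38% of all genes) and 3 were higher (7.89%, against 5.42%). The 9 were Itga1, Itga2, Itga4, Itgav, Itgb3, Itgb8, Lamb1, Lamc1 and Nid1, and the 3 were Itgb6, Lamb3 and Vtn. Both PD libraries lay below both controls for 18 members (47.4%, against 19.5% of all genes) and above both for 4 members (10.5%, against 19.2%). The median log2 fold change of the members was -0.25, against 0.0044 for all genes tested. It moved to -0.45 without PD replicate 1, -0.43 without PD replicate 2, -0.12 without control replicate 1 and -0.52 without control replicate 2.

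DESeq2, run on the same genes, called 5 members lower with PD (Itga1, Itga4, Itgav, Itgb3 and Nid1), where 2.05% of all genes were called lower, and 2 higher (Itgb6 and Vtn), where 1.99% were. limma-trend called 0, where it called 0.128% of all genes. The authors' deposited table listed the same 5 members as lower, against 1.86% of its genes, and Itgb6, Lamb3 and Vtn as higher, against 1.81%. Without the filter on low counts, edgeR called 9 members, where it called 712 of 26291 genes, or 2.71%.

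With YZ9, Itga1, Itga4, Itgav, Itgb3 and Nid1 were again below both controls in both libraries, by log2 fold changes between -1.95 and -0.59, together with Fn1, Itgb1 and Itgb8. By edgeR, 0 of 38 members passed over all genes, where 1 gene of all, or 0.00642%, did. At an unadjusted p under 0.05, 8 members were lower (21.1%, against 6.93% of all genes): Fn1, Itga1, Itga4, Itgav, Itgb1, Itgb3, Itgb8 and Nid1. Lama3 alone was higher (2.63%, against 4.35%). Both YZ9 libraries lay below both controls for 13 members (34.2%, against 24.5% of all genes) and above both for Lama3 and Ptk2 (5.26%, against 21.1%). The members' median log2 fold change was -0.25, against 0.0022 for all genes, and its direction depended on single libraries. It was above 0 without YZ9 replicate 2 (0.031) and without control replicate 1 (0.084), and it was -0.59 without YZ9 replicate 1 and -0.47 without control replicate 2.

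DESeq2 called 4 members lower with YZ9 (Itga1, Itga4, Itgb3 and Nid1), where 2.35% of all genes were called lower, and 0 higher, where 0.983% were. limma-trend called 0, where it called 0.00642% of all genes. The authors' deposited table listed the same 4 as lower, against 2.66% of its genes, and 0 as higher, against 1.18%. Without the filter, edgeR called 4 members, where it called 556 of 26291 genes, or 2.11%.

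Both comparisons used the same 2 control libraries, so their values are given side by side and not as independent results. All 4 treated libraries lay below both controls for 11 members (28.9%, against 10.1% of all genes): Fn1, Itga1, Itga2, Itga4, Itgav, Itgb1, Itgb2, Itgb3, Itgb5, Itgb8 and Nid1. All 4 lay above both for Lama3 (2.63%, against 8.40%).

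**Figure D2:**
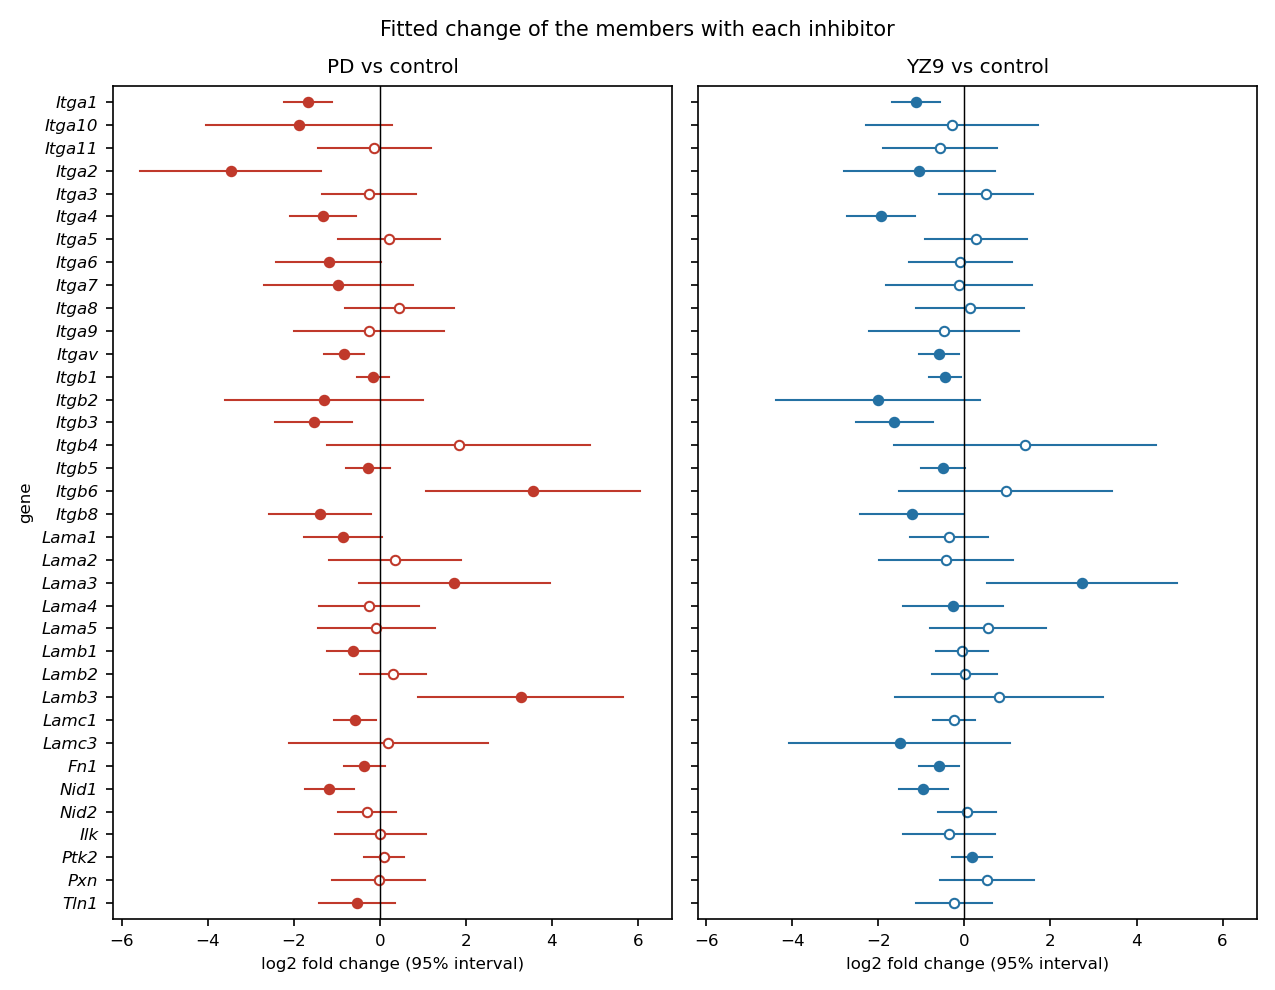
Fitted log2 fold change against control with its 95% interval from the edgeR fit for the members reported here, with PD on the left and YZ9 on the right. Filled points mark members whose 2 treated libraries do not overlap the 2 controls; Itgb7 was not fitted, and Vtn is left out because its control counts were 0. Itga1, Itga4, Itgav, Itgb3, Itgb8 and Nid1 have intervals below 0 in both panels.

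The receptors for collagen pair Itgb1 with Itga1, Itga2, Itga10 or Itga11. Itga1, which binds basement membrane collagen, was at 35.1 and 24.2 CPM with PD, 48.1 and 38.5 CPM with YZ9, and 98.7 and 89.3 CPM in controls. All 4 treated libraries were far below the controls, and both PD libraries were below both YZ9 libraries. The log2 fold change was -1.66 with PD (SE 0.23, edgeR adjusted p = 0.106) and -1.12 with YZ9 (SE 0.23, edgeR adjusted p = 0.214). In the authors' deposited table, Itga1 was at -1.66 with PD (adjusted p = 1.21e-06) and -1.10 with YZ9 (adjusted p = 0.00135).

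Itga2, a collagen receptor subunit known from platelets and epithelia, had 2 and 1 counts with PD, 9 and 8 with YZ9, and 14 and 23 in controls. The groups do not overlap, but all counts are low. It was 11.8-fold lower with PD than in controls by the summed counts (95% counting interval 3.73 to 59.7), and 5.54-fold lower with PD than with YZ9 (95% counting interval 1.60 to 29.5). These intervals cover counting error only. Itga10 had 6 and 3 counts with PD, 19 and 7 with YZ9, and 21 and 14 in controls. Itga11 overlapped between all groups, with levels from 3.77 to 13.3 CPM.

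The receptors for fibronectin and vitronectin hold the alpha subunits Itga4, Itga5, Itga8, Itga9 and Itgav. Itga4, whose partner is Itgb1 or Itgb7, was at 6.61 and 8.08 CPM with PD, 3.67 and 5.80 CPM with YZ9, and 16.6 and 20.0 CPM in controls. The treated libraries did not overlap the controls, and both YZ9 libraries were below both PD libraries. edgeR gave a log2 fold change of -1.32 with PD (SE 0.32, edgeR adjusted p = 0.210) and -1.95 with YZ9 (SE 0.33, edgeR adjusted p = 0.172).

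Itgav, the alpha subunit that pairs with Itgb1, Itgb3, Itgb5, Itgb6 and Itgb8, was at 75.3 and 86.9 CPM with PD, 110 and 81.7 CPM with YZ9, and 136 and 152 CPM in controls. Every treated library was below both controls. On the log2 scale the fold change was -0.83 with PD (SE 0.19, edgeR adjusted p = 0.193) and -0.59 with YZ9 (SE 0.19, edgeR adjusted p = 0.355). Counts without strand cannot separate a gene from an opposite-strand neighbour. Opposite-strand genes overlap exons of Itgav (Gm13684), Itga4 (Cerkl), Nid1 (Gm48682), Nid2 (Rtraf), Tln1 (Creb3), Itgb4 (B230344G16Rik) and Lama3 (Gm29200). The same holds for Itga7 (Mettl7b), Itga8 (E030013I19Rik), Ilk (Rrp8 and Taf10), Lama2 (Gm48084) and Lamc3 (Gm13441). On the same strand, exons of Itga1 overlap Gm49395 and those of Itga10 overlap Gm42957. The values of these genes are uncertain to that extent.

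Itga5, the alpha subunit of the main fibronectin receptor, was at 99.9 and 159 CPM with PD, 186 and 84.5 CPM with YZ9, and 154 and 69.2 CPM in controls. The groups overlapped, and the libraries of each group differed more than the group means. By edgeR the log2 fold change was 0.21 with PD (SE 0.50, edgeR adjusted p = 0.950) and 0.27 with YZ9 (SE 0.50, edgeR adjusted p = 0.861). Leaving out single libraries turned the sign, from -0.26 to 0.90 with PD and from -0.39 to 0.97 with YZ9. Itga8 and Itga9, which bind fibronectin-type matrix proteins with Itgb1, also overlapped. Itga9 was at 90.4 and 17.7 CPM with PD, 66.0 and 26.5 CPM with YZ9, and 65.1 and 62.7 CPM in controls.

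Among the beta subunits of these receptors, Itgb3, a vitronectin receptor subunit also known from platelets, was at 24.7 and 19.3 CPM with PD, 28.4 and 12.9 CPM with YZ9, and 61.3 and 65.7 CPM in controls. All 4 treated libraries were far below both controls. The log2 fold change was -1.53 with PD (SE 0.37, edgeR adjusted p = 0.210) and -1.62 with YZ9 (SE 0.38, edgeR adjusted p = 0.231). In the authors' deposited table, the values for Itgb3 were -1.53 with PD (adjusted p = 2.58e-06) and -1.60 with YZ9 (adjusted p = 0.000940).

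Itgb8, which with Itgav is known to activate latent TGF-beta, was at 6.61 and 3.38 CPM with PD, 7.74 and 3.44 CPM with YZ9, and 11.8 and 14.3 CPM in controls. Its treated libraries were below the controls, with a wide spread among themselves. edgeR gave a log2 fold change of -1.39 with PD (SE 0.50, edgeR adjusted p = 0.370) and -1.23 with YZ9 (SE 0.50, edgeR adjusted p = 0.427). Itgb5, another partner of Itgav, was at 29.3 and 39.7 CPM with PD, 27.8 and 31.5 CPM with YZ9, and 42.4 and 41.1 CPM in controls, so that the treated libraries were below the controls, PD replicate 2 by a narrow margin.

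Itgb1 was at 1301 and 1153 CPM with PD, 1113 and 883 CPM with YZ9, and 1357 and 1363 CPM in controls. Treated libraries were lower, by less than in Itga1 or Itgb3. On the log2 scale the fold change was -0.15 with PD (SE 0.15, edgeR adjusted p = 0.851) and -0.45 with YZ9 (SE 0.16, edgeR adjusted p = 0.377).

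Itgb6, an epithelial partner of Itgav, was higher in both PD libraries than in the other 4, at a low level. It had 148 and 26 counts with PD, 19 and 8 with YZ9, and 5 and 10 in controls. PD replicate 1 held most of the counts. By edgeR the log2 fold change was 3.56 with PD (SE 1.04, edgeR adjusted p = 0.260), from 1.88 without PD replicate 1 to 4.31 over the fits that left out a library. With YZ9 the libraries overlapped the controls, at a log2 fold change of 0.96 (SE 1.03, edgeR adjusted p = 0.752).

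**Figure D3:**
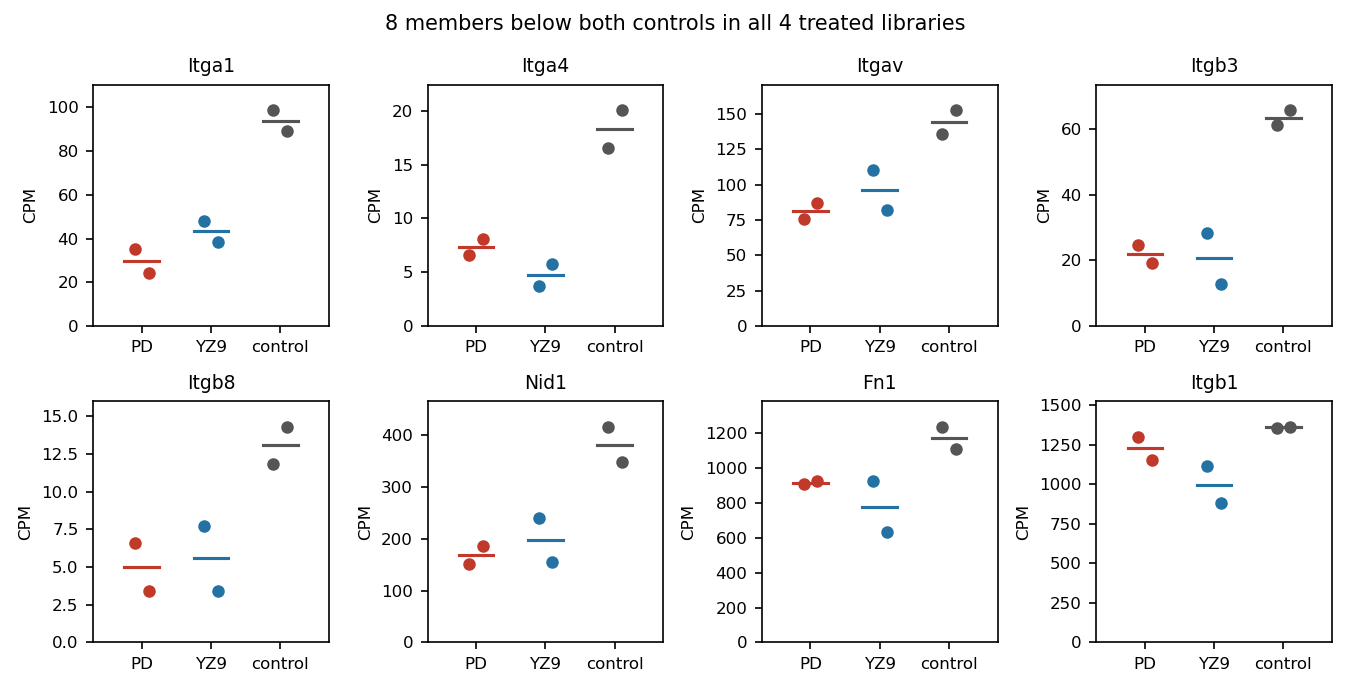
CPM of 8 of the 11 members whose 4 treated libraries all lay below both controls, with a point for each library and a bar at the group mean. Each panel has its own axis from 0, and Itgb1 is at 1301 and 1153 CPM with PD, 1113 and 883 CPM with YZ9, and 1357 and 1363 CPM in controls.

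Laminin receptors pair Itga3, Itga6 or Itga7 with Itgb1, or Itga6 with Itgb4. Itga6 was at 48.2 and 15.8 CPM with PD, 85.4 and 51.8 CPM with YZ9, and 65.9 and 80.2 CPM in controls. PD libraries were below the other 4, and PD replicate 2 was lowest. The log2 fold change was -1.19 with PD (SE 0.51, edgeR adjusted p = 0.481) and -0.092 with YZ9 (SE 0.50, edgeR adjusted p = 0.961). Without PD replicate 2 the value with PD was the closest to 0 of the leave-one-out fits, at -0.60. Itga3 overlapped between groups. Itgb4, the hemidesmosome subunit, had 78 and 6 counts with PD, 43 and 15 with YZ9, and 5 and 19 in controls, and the groups overlapped.

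Itgb2, the common leukocyte beta subunit, had 37 and 26 counts with PD, 2 and 41 with YZ9, and 61 and 101 in controls. Its treated libraries were below the controls, at a log2 fold change of -1.30 with PD (SE 0.96, edgeR adjusted p = 0.749) and -2.01 with YZ9 (SE 0.99, edgeR adjusted p = 0.499).

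Of the 11 laminin chains, 5 had a positive and 6 a negative log2 fold change with PD (median -0.077), and with YZ9 5 were positive and 6 negative (median -0.055). Lama1, Lamb1 and Lamc1 form laminin-111, the first laminin of the embryo. Lama1 was at 42.3 and 79.8 CPM with PD, 98.1 and 73.5 CPM with YZ9, and 139 and 80.4 CPM in controls. The PD libraries were below the controls, PD replicate 2 by a narrow margin, while YZ9 overlapped the controls. edgeR gave a log2 fold change of -0.85 with PD (SE 0.38, edgeR adjusted p = 0.506) and -0.36 with YZ9 (SE 0.38, edgeR adjusted p = 0.743).

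Lamb1 was at 167 and 210 CPM with PD, 330 and 225 CPM with YZ9, and 339 and 238 CPM in controls. The PD libraries were below the other 4, and YZ9 overlapped the controls. On the log2 scale the fold change was -0.62 with PD (SE 0.26, edgeR adjusted p = 0.462) and -0.055 with YZ9 (SE 0.26, edgeR adjusted p = 0.952). Lamc1 had the same order, at 138 and 170 CPM with PD, 216 and 175 CPM with YZ9, and 261 and 200 CPM in controls, with a log2 fold change of -0.58 with PD (SE 0.20, edgeR adjusted p = 0.353) and -0.24 with YZ9 (SE 0.20, edgeR adjusted p = 0.688).

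Lama5, the main alpha chain of many later basement membranes, overlapped between all groups, at 15.5 and 9.49 CPM with PD, 25.8 and 12.9 CPM with YZ9, and 19.4 and 6.92 CPM in controls. By edgeR the log2 fold change was -0.077 with PD (SE 0.56, edgeR adjusted p = 0.987) and 0.55 with YZ9 (SE 0.56, edgeR adjusted p = 0.735). Lama2, Lama4, Lamb2 and Lamc3 overlapped between PD and control, and with YZ9 Lama4 and Lamc3 lay below both controls.

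Lama3 and Lamb3 encode chains of the laminin of epithelial hemidesmosomes. Lamb3 had 81 and 33 counts with PD, 16 and 3 with YZ9, and 5 and 7 in controls, so that the PD libraries were above the other 4 and YZ9 straddled the controls. The log2 fold change was 3.27 with PD (SE 0.99, edgeR adjusted p = 0.282) and 0.81 with YZ9 (SE 1.01, edgeR adjusted p = 0.788). Lama3 had 16 and 7 counts with PD, 29 and 15 with YZ9, and 2 and 5 in controls. Its 4 treated libraries were all above both controls, at a log2 fold change of 1.74 with PD (SE 0.93, edgeR adjusted p = 0.601) and 2.72 with YZ9 (SE 0.92, edgeR adjusted p = 0.370).

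Fn1 was at 909 and 924 CPM with PD, 926 and 632 CPM with YZ9, and 1237 and 1108 CPM in controls. Both PD libraries and both YZ9 libraries lay below both controls. edgeR gave a log2 fold change of -0.36 with PD (SE 0.20, edgeR adjusted p = 0.613) and -0.59 with YZ9 (SE 0.20, edgeR adjusted p = 0.362). YZ9 replicate 2 was the lowest library, and without it the value with YZ9 was the closest to 0 of the leave-one-out fits, at -0.33. Exons of Fn1 overlap those of Apol7d on the opposite strand.

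Vtn encodes vitronectin, a ligand of the Itgav integrins made mainly by the liver. It had 139 and 77 counts with PD, 0 and 4 with YZ9, and 0 and 0 in controls. Reads were thus found in both PD libraries, of both sexes, and at 4 counts or fewer in each of the other 4. Against a floor of 3 counts over the control group, Vtn was at least 75.4-fold higher with PD (edgeR adjusted p = 0.127). In the authors' deposited table, Vtn had an adjusted p of 1.61e-06 in the comparison of PD with control.

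Nid1, the nidogen that binds laminin gamma 1 and type IV collagen, was at 152 and 186 CPM with PD, 239 and 156 CPM with YZ9, and 416 and 347 CPM in controls. All 4 treated libraries were well below the controls. On the log2 scale the fold change was -1.18 with PD (SE 0.24, edgeR adjusted p = 0.164) and -0.95 with YZ9 (SE 0.24, edgeR adjusted p = 0.254). Its paralogue Nid2 overlapped between groups, at 132 and 163 CPM with PD, 217 and 156 CPM with YZ9, and 223 and 136 CPM in controls, with a log2 fold change of -0.29 with PD (SE 0.28) and 0.054 with YZ9 (SE 0.28).

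The bases upstream of the start site are shown for the 3 members that were lower with both inhibitors in the authors' deposited table and have an entry in the promoter table, and for Vtn, which was higher with PD. They are credited to RefSeq on GRCm38.p6, in the direction of transcription, and bases inside the GENCODE M21 gene were left off. Capitals mark GGAATG or its reverse complement, the motif of TEAD factors.
Itga1, chr13:115101965-115102214, minus strand: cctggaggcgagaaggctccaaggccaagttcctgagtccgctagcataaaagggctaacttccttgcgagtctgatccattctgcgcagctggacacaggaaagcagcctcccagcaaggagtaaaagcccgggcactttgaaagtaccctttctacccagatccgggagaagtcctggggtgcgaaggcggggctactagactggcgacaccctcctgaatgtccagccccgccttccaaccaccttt
Itga4, chr2:79255176-79255425, plus strand: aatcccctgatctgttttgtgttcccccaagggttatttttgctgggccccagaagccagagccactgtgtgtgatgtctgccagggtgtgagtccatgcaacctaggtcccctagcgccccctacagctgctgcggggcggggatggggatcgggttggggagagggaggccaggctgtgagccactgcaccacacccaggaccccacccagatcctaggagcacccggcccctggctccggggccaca
Nid1, chr13:13437352-13437550, plus strand: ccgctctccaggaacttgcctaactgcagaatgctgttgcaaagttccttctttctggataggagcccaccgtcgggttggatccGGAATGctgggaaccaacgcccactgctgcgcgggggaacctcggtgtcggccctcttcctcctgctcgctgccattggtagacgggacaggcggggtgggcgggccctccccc
Vtn, chr11:78498870-78499090, plus strand: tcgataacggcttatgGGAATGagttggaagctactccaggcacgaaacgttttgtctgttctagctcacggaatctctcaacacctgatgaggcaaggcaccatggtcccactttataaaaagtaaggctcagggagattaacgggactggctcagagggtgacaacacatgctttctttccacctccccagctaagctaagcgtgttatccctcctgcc

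Of the 39 members, 24 had an entry, with 28 windows of 250 bases. The TEAD motif GGAATG, searched on both strands, was in 5 of the 28 windows and in 12.6% of all 32841 promoters. The ETS motif CCGGAAG was in 3 of 28 windows and in 6.91% of all promoters. Of the 3, Ilk gave overlapping windows that hold the same site, and Itga3 gave the other. The AP-1 motif TGANTCA was in 0 of 28 windows and in 6.75% of all promoters. Within the windows printed, Nid1 and Vtn each hold a TEAD motif, and Itga1 and Itga4 hold none of these motifs. A match describes letters and not binding.

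The 4 intracellular members showed small differences. Ptk2, the focal adhesion kinase gene, was at 106 and 78.0 CPM with PD, 104 and 88.0 CPM with YZ9, and 84.3 and 86.6 CPM in controls, with a log2 fold change of 0.11 with PD and 0.17 with YZ9 (SE 0.19 for each). Tln1, the talin that binds the tails of beta subunits, was at 115 and 122 CPM with PD, 190 and 95.7 CPM with YZ9, and 214 and 125 CPM in controls. Its PD libraries were below the controls by a margin smaller than the gap between the controls (log2 fold change -0.52, SE 0.37, edgeR adjusted p = 0.729). Pxn, the paxillin adaptor, and Ilk, the integrin-linked kinase gene, overlapped between groups in both comparisons.

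Within a library, the makeup of each family in CPM per kb does not depend on the library's scaling. Nid1 made up 46.2% and 46.0% of the summed nidogens with PD and 45.1% and 42.7% with YZ9, against 58.1% and 65.6% in controls. Nid1 was thus below Nid2 in all 4 treated libraries and above it in both controls. The ratio of Itgb3 to Itgb5 per kb was 0.508 and 0.293 with PD and 0.615 and 0.246 with YZ9, against 0.872 and 0.963 in controls, again with no overlap.

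Lama1 was the largest laminin alpha chain per kb in every library. Its share was 64.3% and 69.0% with PD and 70.1% and 71.8% with YZ9, against 77.3% and 76.2% in controls. Among beta chains, Lamb1 made up 83.4% and 86.3% with PD, 91.8% and 91.6% with YZ9, and 91.8% and 92.7% in controls. The rest in the PD libraries was mostly Lamb2, at 14.3% and 12.9%, against 8.17% and 7.12% in controls. Itgb1 was the dominant beta subunit per kb throughout, at 95.6% and 94.8% with PD, 95.2% and 94.8% with YZ9, and 93.2% and 92.9% in controls. These family shares were not tested.

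**Figure D4:**
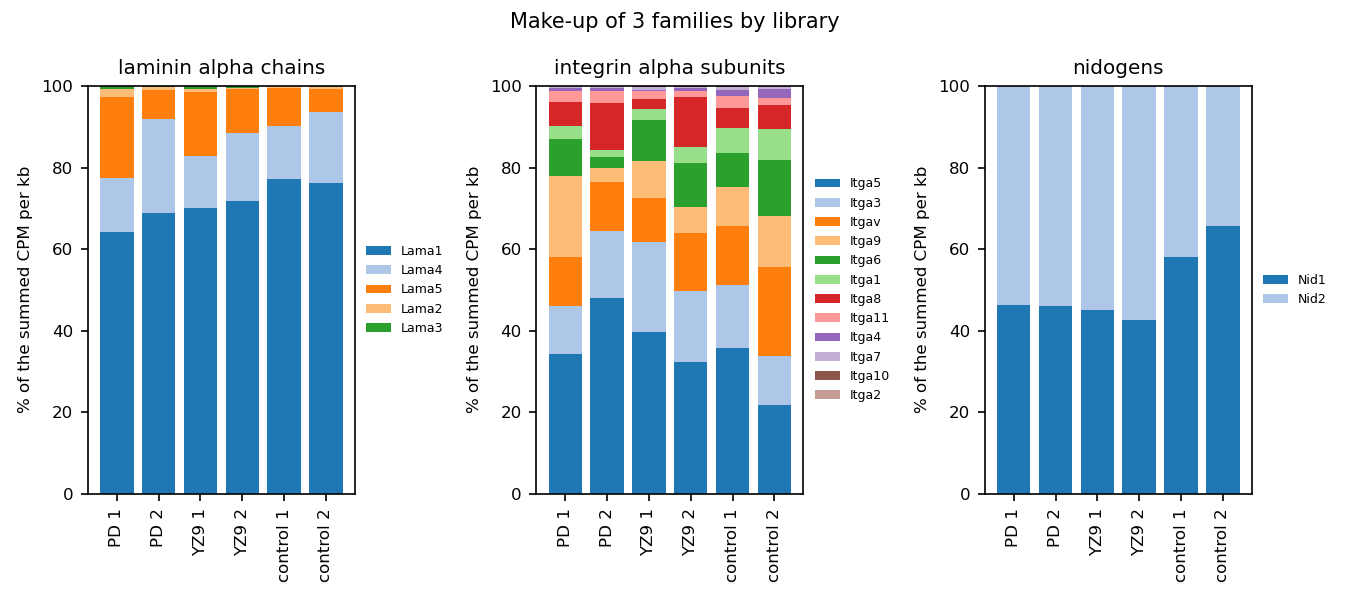
Percent of the summed CPM per kb taken by each member of the laminin alpha chains, the integrin alpha subunits and the nidogens, with a stacked bar for each library, PD first, then YZ9, then control. Nid1 takes 42.7% to 46.2% of the nidogens in the 4 treated libraries and 58.1% and 65.6% in controls, and the alpha subunits vary between libraries of a group, with Itga5 at 34.4% and 47.9% with PD, 39.7% and 32.2% with YZ9, and 35.7% and 21.7% in controls.

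PD at 1 µM and YZ9 at 10 µM were also compared directly, at different doses. By edgeR, 0 of 38 members passed over all genes, where 0.122% of all genes did. At an unadjusted p under 0.05, Vtn, Itgb6 and Lamb3 were higher with PD than with YZ9 (7.89%, against 7.08% of all genes) and Itga2 was lower (2.63%, against 4.40%). DESeq2 called Vtn higher with PD and 0 members lower, among the 34 members to which it gave an adjusted p, where 2.68% of genes were called higher and 1.20% lower. limma-trend called 0, where it called 0.218% of all genes. The PD libraries lay above both YZ9 libraries for 7 members (18.4%, against 21.6% of all genes) and below both for 6 (15.8%, against 21.4%).

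For Vtn the log2 fold change of PD over YZ9 was 5.75 (SE 1.05, edgeR adjusted p = 0.160). Itgb6 was at 2.60 (SE 0.98, edgeR adjusted p = 0.398) and Lamb3 at 2.47 (SE 0.95, edgeR adjusted p = 0.411). Itga1, lower in both PD libraries than in both YZ9 libraries, was at -0.55 (SE 0.23, 95% interval -1.10 to 0.0045, edgeR adjusted p = 0.439). Lamb1 was at -0.56 (SE 0.26, 95% interval -1.18 to 0.055, edgeR adjusted p = 0.474). For Itgb3 the difference was 0.094 with a 95% interval from -0.79 to 0.98, and for Nid1 -0.23 with a 95% interval from -0.79 to 0.34. These intervals leave room for differences in either direction.

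Markers of other cell types were read beside the members, and no association between them was tested. Of 8 epithelial markers, 7 were above both controls in both PD libraries and 6 in both YZ9 libraries, against 19.2% and 21.1% of all genes. Cdh1, the epithelial cadherin, was at 79.8 and 21.6 CPM with PD, 113 and 30.7 CPM with YZ9, and 1.84 and 3.80 CPM in controls. The summed epithelial markers, mostly keratins, were at 11948 and 7700 CPM with PD and 7215 and 5737 CPM with YZ9, against 6114 and 5187 CPM in controls. Itgb4, Itgb6 and Lamb3 were each highest in PD replicate 1, which also had the highest epithelial sum. Of these markers Cdh1 and Esrp1 were highest in YZ9 replicate 1, and Epcam, Cldn6, Cldn7, Krt8, Krt18 and Krt19 in PD replicate 1. Itgb6 and Lamb3 were at 0.850 and 0.716 CPM in YZ9 replicate 1, against 5.69 and 3.11 CPM in PD replicate 1. The part of epithelial cells in these values was not tested.

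Of 12 visceral endoderm markers, 4 (Afp, Ttr, Apob and Rbp4) were above both controls in both PD libraries (19.2% of all genes were). In both YZ9 libraries 1 was above (21.1% of all genes). Fgb and Trf were below both controls in all 4 treated libraries (10.1% of all genes). Fgb had 0 counts in each of those, and 1 and 8 in controls. Apob had 4 and 11 counts with PD, and 3 and 0 in controls. Only 6 of the 12 markers passed the filter on low counts, while the shares are of genes that passed it. The sum of the 12 markers was 91.1 and 17.7 CPM with PD and 5.06 and 7.55 CPM with YZ9, against 5.88 and 12.0 CPM in controls. Hnf4a and Fga had 0 counts in all 6 libraries. Vtn was higher in the PD library with the higher sum, and the part of visceral endoderm in its value was not tested.

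Blood and megakaryocyte markers bear on Itgb3, Itga2, Itga4 and Itgb2, which such cells also express. Of 8 such markers, 3 were below both controls in both PD libraries and 8 in both YZ9 libraries, against 19.5% and 24.5% of all genes. The sum was 461 and 6400 CPM with PD and 26.1 and 1109 CPM with YZ9, against 2435 and 7327 CPM in controls. Most of it in each library came from the globins Hba-x, Hbb-bh1 and Hbb-y, and little from the platelet markers. Itga2b, the platelet partner of Itgb3, was at 6.95 and 18.7 CPM with PD, 5.86 and 6.24 CPM with YZ9, and 18.1 and 21.6 CPM in controls. The markers below both controls in both PD libraries were Tubb1, Gp1bb and Pf4. Tubb1, a platelet tubulin, was at 2.54 and 2.49 CPM with PD, 0.269 and 0.303 CPM with YZ9, and 17.3 and 20.8 CPM in controls. Gp1bb, a platelet receptor subunit, was at 3.11 and 0.040 CPM with PD, 0.716 and 0.303 CPM with YZ9, and 4.87 and 8.12 CPM in controls. Of the 8 markers, Tubb1, Gp1bb and Pf4 alone were below both controls in all 4 treated libraries (10.1% of all genes were). In PD replicate 2, Gata1 was above both controls, at 75.3 CPM against 22.8 and 40.4 CPM. Hbb-bh1 was also above them there, at 3473 CPM against 663 and 1607 CPM. The markers' part in the Itgb3 values was not tested.

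Parietal endoderm is a known source of laminin-111 and Nid1, and its 7 markers went in both directions. With PD, Pth1r, Stra6 and Ctsl were above both controls in both libraries, and Thbd, Plat and Fst below (19.2% and 19.5% of all genes). With YZ9, Stra6 and Ctsl were above, and Thbd, Plat and Fst below (21.1% and 24.5% of all genes). The sum was 709 and 397 CPM with PD and 467 and 332 CPM with YZ9, against 842 and 998 CPM in controls. Their part in the Nid1 and Lama1 values was not tested. Of 6 definitive endoderm markers, Foxa1 and Foxa2 were above both controls in all 4 treated libraries (8.40% of all genes were). Hhex was below both controls in both PD libraries (19.5% of all genes). Of 6 endothelial markers, Pecam1 and Tie1 were below both controls in all 4 treated libraries (10.1% of all genes were). Of the same 6, Cdh5 was also below and Tek above both controls in both PD libraries, and Emcn was also below and Kdr above in both YZ9 libraries.

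**Figure D5:**
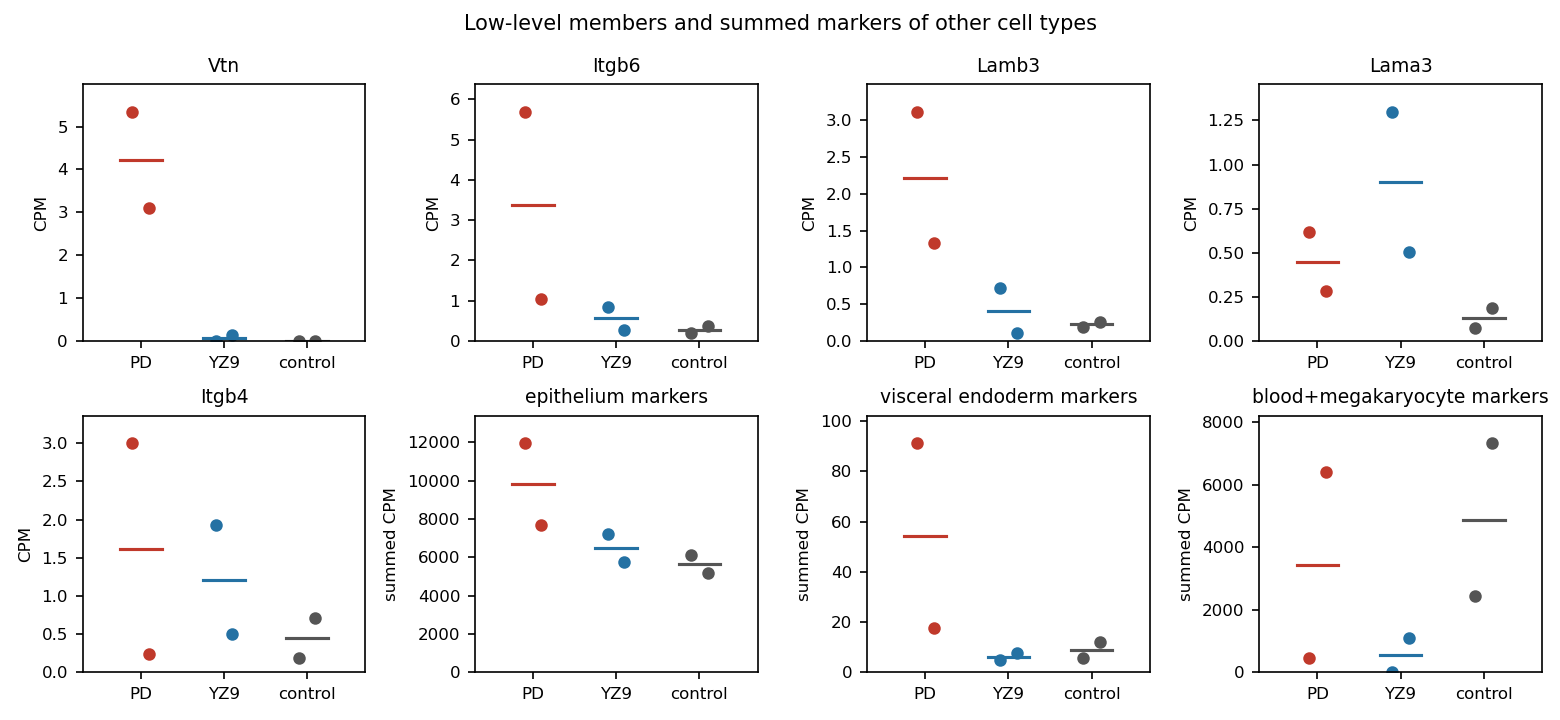
CPM of 5 members with low counts and summed CPM of 3 marker lists, with a point for each library and a bar at the group mean. Vtn, Itgb6 and Lamb3 are above the YZ9 and control points in both PD libraries, PD replicate 1 is also highest for the epithelial markers (11948 CPM) and the visceral endoderm markers (91.1 CPM), and the blood and megakaryocyte markers are lowest in YZ9 replicate 1 (26.1 CPM).

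Members differed more between replicates than genes in general in the YZ9 group and, by less, in the PD group. Log2 differences between the libraries of a group were taken after adding 0.5 to each CPM, which shrinks them at low levels. Their median absolute value was 0.44 for members with PD, 0.76 with YZ9 and 0.32 in controls. For all genes tested it was 0.30, 0.28 and 0.29. Of 38 members, 6 with PD, 14 with YZ9 and 3 in controls differed by more than 1 on this log2 scale with the offset. So did 10.8% of all genes with PD, 7.93% with YZ9 and 5.23% in controls. Of the 14, Itga8 and Itgb2 were higher in YZ9 replicate 2 and the others in YZ9 replicate 1.

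Other genes of the same matrix and adhesion machinery were read from lists that share no member with the module. Of 32 further adhesion complex genes, 0 passed in either comparison, at a median log2 fold change of -0.23 with PD and -0.099 with YZ9. Those with the smallest p were Pak1 (1.22 with PD, SE 0.31) and Lpxn (-2.45, SE 0.64), and Lims1 (-0.70 with YZ9, SE 0.15) and Tln2 (1.30, SE 0.32). Of 21 further basement membrane genes, 0 passed, at a median of -0.042 with PD and -0.017 with YZ9. Fras1, a basement membrane adhesion protein, was at 0.78 with PD (SE 0.18) and Col4a1, a type IV collagen chain, at -1.14 (SE 0.43). With YZ9, Sparc was at -0.56 (SE 0.16) and Frem2 at 1.30 (SE 0.42).

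Of 23 further interstitial matrix genes, 0 passed, at a median log2 fold change of -0.43 with PD and -0.87 with YZ9, and 12 lay below both controls in both PD libraries (19.5% of all genes did) and 16 in both YZ9 libraries (24.5% of all genes). Vcan, a large proteoglycan of migratory mesenchyme, was at 236 and 215 CPM with PD, 233 and 189 CPM with YZ9, and 487 and 456 CPM in controls. By edgeR the log2 fold change was -1.06 with PD (SE 0.16, edgeR adjusted p = 0.106) and -1.16 with YZ9 (SE 0.16, edgeR adjusted p = 0.127). Fbn1, a microfibril protein, was at -1.26 with PD (SE 0.22, edgeR adjusted p = 0.128). Col3a1, a fibrillar collagen, was at -2.73 with YZ9 (SE 0.47, edgeR adjusted p = 0.172) and at -0.12 with PD (SE 0.44).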

How the data were processed

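Per the submitters' processing notes, CASAVA 1.8.2, STAR 2.7.9a and DESeq2 1.40.1 were used with the build GRCm38. For the counting step and the annotation, the tool was not given in the sources used here. Per the file headers, the deposited tables hold raw counts (whole numbers) for each gene, a normalized signal (not used here), and the authors' log2 fold changes, standard errors, p-values and adjusted p-values. Control counts were identical in both tables, so 6 libraries were joined; 0 columns belonged to other samples.

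In R 4.3.3, genes were filtered with filterByExpr (minimum count 10, minimum total 15), scaled by TMM and fitted with edgeR 4.0.16 (glmQLFit, glmQLFTest, group only, all 6 libraries, 2-sided), with Benjamini-Hochberg adjustment over 15568 genes and a threshold of 0.05. The common dispersion was 0.101, and scripts were tested on simulated data. SE was computed as the size of the log2 fold change divided by the root of the F statistic. Exon lengths and positions come from GENCODE M21. A count interval is an exact 95% binomial one.

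Named members are Fn1, Itga5, Itgav, Itgb1, Itga6, Lama1, Lama5, Lamb1, Lamc1 and the 6 with the smallest unadjusted p per comparison; others given in full were chosen after their values were seen. Members and lists were chosen with earlier results of these data known. Alternatives were DESeq2 1.42.0, its size factors, limma-trend (limma 3.58.1), other filters, edgeR's newer fit, fewer libraries, a replicate block and sex. The values of 1 member are not reported here, and counts and medians over the members include it.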

Additional observations from a re-analysis of the deposited data

How the results depend on the processing

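No member passed over all genes when any 1 library was left out (0 to 0 calls in each comparison), while the calls over all genes ranged from 0 to 33 with PD, from 0 to 9 with YZ9 and from 0 to 35 for PD against YZ9. Without the filter on low counts, edgeR called 9, 4 and 1 members and 712, 556 and 601 genes for PD, YZ9 and PD against YZ9. DESeq2 called 7, 4 and 1 members and 629, 519 and 534 genes. With sex as a covariate, 1 member was called with PD (Itga1) and 1 with YZ9 (Itga4), among 124, 122 and 173 genes. Using the 4 libraries of a comparison alone gave 5 genes with YZ9 and 0 for PD against YZ9. In the comparison of PD with YZ9, limma-trend gave 34 genes and edgeR's newer fit 29. The cause of these differences was not tested.

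No label says that replicate numbers pair the libraries. Deviations of same-numbered libraries correlated at -0.13 for PD and control, 0.30 for YZ9 and control and 0.38 for PD and YZ9, where same-numbered libraries also share sex, so the numbers were not taken as pairs. With the replicate block, 0 members and 1, 3 and 12 genes were called for PD, YZ9 and PD against YZ9. A crossed pairing of PD and control, chosen after seeing the data, gave 0 members and 61 genes.

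Of the named members' values under alternatives, 691 kept their sign and side of the threshold, 28 passed it and 28 changed sign. Lama5 with PD became 0.062 with limma-trend, 0.052 with the replicate block and 0.31 with sex, Itga6 with YZ9 became 0.46 with sex, and Itga5 for PD against YZ9 became 0.0053, 0.10 and 0.0051 in these 3 fits. Left-out libraries gave ranges that crossed 0 for Itga5 (-0.26 to 0.90) and Lama5 (-0.64 to 0.85) with PD. With YZ9 these were Itga5 (-0.39 to 0.97), Itga6 (-0.49 to 0.24), Itgb6 (-0.054 to 1.59), Lama1 (-0.70 to 0.092), Lama5 (-0.016 to 1.48), Lamb1 (-0.35 to 0.22) and Lamb3 (-1.11 to 1.66). For PD against YZ9 they were Fn1 (-0.032 to 0.53), Itga5 (-0.54 to 0.60), Itgb3 (-0.38 to 0.76) and Nid1 (-0.52 to 0.11). The members' median ranged from -0.52 to -0.12 with PD, from -0.59 to 0.08 with YZ9 and from -0.42 to 0.21 for PD against YZ9. With 2 libraries a group, members of few counts such as Itga2, Itga10, Lama3 and Lamc3 are the least certain, and differences within their intervals were not detectable at this depth.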

Other observations

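Proteases that cut the matrix, and their inhibitors, were read from a list of 15 genes, of which 0 passed edgeR's test with PD or YZ9 after adjustment over all genes. With PD, 4 were higher and 6 lower at an unadjusted p under 0.05 (5.42% and 5.38% of all genes), and 8 lay above and 6 below both controls in both libraries (19.2% and 19.5% of all genes). With YZ9, 1 was higher and 5 lower at an unadjusted p under 0.05 (4.35% and 6.93%), and 2 lay above and 9 below both controls in both libraries (21.1% and 24.5%). Mmp9, a gelatinase that cuts type IV collagen, had 120 and 162 counts with PD, 5024 and 1198 with YZ9, and 8551 and 5686 in controls. Its PD libraries were far below the other 4, at a log2 fold change of -5.58 against control (SE 0.85, edgeR adjusted p = 0.106), and YZ9 was at -1.01 (SE 0.70, edgeR adjusted p = 0.621). Mmp2, the other gelatinase, was at 61.2 and 62.9 CPM with PD, 99.5 and 62.4 CPM with YZ9, and 183 and 139 CPM in controls. Adamts1, which cuts proteoglycans such as versican, was at 118 and 169 CPM with PD, 46.9 and 47.5 CPM with YZ9, and 68.1 and 42.8 CPM in controls, so that its PD libraries were above the other 4.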
